A study of Homo sapiens with 12 samples.

Results

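In U937 cells, an acute myeloid leukaemia (AML) line of monocytic character, 36 genes of meiosis, the piRNA pathway and germ cell identity were followed through treatment with decitabine and a retinoid. The 36 are a fixed set of gene symbols among the 44786 of the transcript table. A gene is read from 1 of its transcripts, the row with the highest mean over all libraries, which leaves 36 of the 273 rows that carry these symbols. By role, 13 mark germ cell identity, 11 belong to the piRNA pathway and 12 to meiosis. The set is defined by gene names and includes genes without a single read.

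RNA-seq was performed on 12 libraries of this 1 cell line, 3 each from untreated cells and from cells given DAC, ATRA or DAC+ATRA. DAC (decitabine, 200 nM) is a deoxycytidine analogue that traps DNA methyltransferases and lowers DNA methylation, and ATRA (1 µM) is all-trans retinoic acid, the ligand of the retinoic acid receptors. DAC was renewed daily for 3 days. According to the study's methods, ATRA was added together with the last DAC pulse. The labels give a culture time of 96 h for the untreated cells and of 72 h for all treated cells, so that time and treatment cannot be told apart in comparisons with untreated cells. The study's text gives 72 h for its RNA-seq and names no longer culture for untreated cells. Which time holds was not resolved here. All cells grew with 20% fetal calf serum and 5 ng/ml GM-CSF, as the labels have it, and no vehicle-treated group was analysed here. The study's methods differ from the labels, with a lower serum content and no mention of GM-CSF. The submitters call the triplicates technical, and p-values below therefore measure the spread between libraries, which may not include that between separate cultures. Libraries are numbered 1 to 12 as in the table.

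Germline genes are switched off in most somatic tissues, and DNA methylation of their promoters, together with the PRC1.6 repressor that carries E2F6 and MGA-MAX, is known to hold many of them silent. In germ cells, the PIWI proteins and the Tudor-domain proteins that bind them make and use piRNAs, small RNAs that silence transposable elements. Meiotic genes build the synaptonemal complex between paired chromosomes, make and repair the programmed DNA breaks, and hold sister chromatids together with meiosis-specific cohesins.

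Promoter sequence is shown for 6 members that rose with DAC and for PIWIL1, which had no read in any library. Each is the stretch of 250 bases before the RefSeq start in GRCh38.p14, written 5′ to 3′ on the gene's strand, with CpG dinucleotides, the sites at which DNA is methylated, in capitals. The positions are chr3:16605424-16605673 (minus strand) for DAZL, chr12:7711183-7711432 (plus) for DPPA3, chr6:73394578-73394827 (plus) for DDX43, chr14:46651782-46652031 (minus) for RPL10L, chr19:32719517-32719766 (plus) for TDRD12, chr14:103928206-103928455 (plus) for TDRD9 and chr12:130337637-130337886 (plus) for PIWIL1.
DAZL: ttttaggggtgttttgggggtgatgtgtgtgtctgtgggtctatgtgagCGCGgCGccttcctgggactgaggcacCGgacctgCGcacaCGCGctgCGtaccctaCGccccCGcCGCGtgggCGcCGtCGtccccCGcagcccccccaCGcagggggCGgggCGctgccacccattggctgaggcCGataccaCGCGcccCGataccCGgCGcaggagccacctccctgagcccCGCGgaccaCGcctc
DPPA3: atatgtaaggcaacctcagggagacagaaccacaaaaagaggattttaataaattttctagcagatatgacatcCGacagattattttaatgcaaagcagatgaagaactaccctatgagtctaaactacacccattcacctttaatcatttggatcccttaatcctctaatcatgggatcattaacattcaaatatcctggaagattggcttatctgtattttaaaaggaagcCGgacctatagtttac
DDX43: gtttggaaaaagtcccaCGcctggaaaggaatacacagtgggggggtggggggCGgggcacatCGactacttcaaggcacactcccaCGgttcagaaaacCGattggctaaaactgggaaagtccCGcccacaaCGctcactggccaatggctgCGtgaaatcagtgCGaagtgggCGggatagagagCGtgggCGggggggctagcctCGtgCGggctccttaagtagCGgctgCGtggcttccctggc
RPL10L: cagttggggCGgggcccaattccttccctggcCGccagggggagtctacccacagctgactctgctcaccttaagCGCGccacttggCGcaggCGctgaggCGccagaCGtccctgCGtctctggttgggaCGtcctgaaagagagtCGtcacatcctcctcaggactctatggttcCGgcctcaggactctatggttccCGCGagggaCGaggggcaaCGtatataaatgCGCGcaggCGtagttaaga
TDRD12: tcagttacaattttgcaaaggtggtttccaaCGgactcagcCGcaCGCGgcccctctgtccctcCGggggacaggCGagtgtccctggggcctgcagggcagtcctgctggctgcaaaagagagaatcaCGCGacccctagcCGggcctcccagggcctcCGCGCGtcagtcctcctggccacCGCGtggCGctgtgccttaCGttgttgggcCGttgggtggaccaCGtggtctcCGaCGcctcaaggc
TDRD9: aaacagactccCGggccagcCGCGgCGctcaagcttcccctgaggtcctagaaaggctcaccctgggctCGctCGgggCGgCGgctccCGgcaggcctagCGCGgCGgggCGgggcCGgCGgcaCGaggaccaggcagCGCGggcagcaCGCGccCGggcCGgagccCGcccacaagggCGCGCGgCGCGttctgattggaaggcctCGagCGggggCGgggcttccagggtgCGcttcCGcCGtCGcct
PIWIL1: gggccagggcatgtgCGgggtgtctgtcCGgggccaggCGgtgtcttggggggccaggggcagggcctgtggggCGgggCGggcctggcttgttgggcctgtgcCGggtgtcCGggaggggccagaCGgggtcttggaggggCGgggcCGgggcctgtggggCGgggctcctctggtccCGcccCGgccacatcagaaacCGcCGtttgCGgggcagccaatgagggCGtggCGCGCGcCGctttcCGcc
The stretch before DAZL holds 28 CpGs and that before TDRD9 holds 35, whereas the one before DPPA3, the gene with the next largest rise after DAZL, holds 2. PIWIL1, silent throughout, has 22 CpGs, between the counts of RPL10L (19) and DAZL.

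Sequencing gave 8042435 to 10683593 counted reads per library, so that 3 reads correspond to a normalized read count of 2.50 to 3.71. The normalized read count is the number of reads of a transcript divided by the size factor of its library. Myeloid identity was checked with 15 marker genes: 10 of them, among them MPO, CEBPA, CD33 and CD4, had at least 10 in every untreated library, while PTPRC (CD45) was listed at 0 in all 12. CD14, CD68 and ELANE also never exceeded 3 reads, so that 4 of the 15 stayed at or below this count. Reads shared by several transcripts of the same strand were mostly not counted in this table, and a transcript without bases of its own can therefore be at 0 although it is expressed. Markers of other cell types moved with treatment: the summed value of 13 epithelial, stromal, endothelial and testicular somatic markers ran from 393 to 423 in untreated cells, from 2744 to 2800 with DAC, from 556 to 618 with ATRA and from 3100 to 3487 with DAC+ATRA. Over all 12 libraries, most reads of this list fell on PECAM1, while in untreated cells AMH made up most of the sum. The sum of 12 markers of other blood lineages ran from 165 to 174, 685 to 696, 261 to 426 and 1442 to 1531 in the same order, and that of the 15 myeloid markers from 61318 to 68613, 40262 to 57931, 42394 to 60633 and 37675 to 40615. AMH, a Sertoli cell product, had a mean of 247 in untreated cells and of 147 with DAC, and INHA had no read in any library. Of the 13, 5 never exceeded 3 reads. The part of such shifts in the results was not tested. In bulk RNA, fewer cells that express a gene and less of its RNA per cell cannot be told apart.

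With DAC, alone or with ATRA, far more reads fell on the 36 genes. Their summed normalized read count was 58.8 to 85.0 in the untreated libraries, 698 to 1131 with DAC, 49.2 to 67.6 with ATRA and 743 to 921 with DAC+ATRA. The DAC and DAC+ATRA libraries overlapped with each other and lay far above both other groups. Of the reads counted in this sum with DAC, 32.6% fell on DAZL and 17.9% on DPPA3, with no correction for transcript length.

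**Figure D1:**
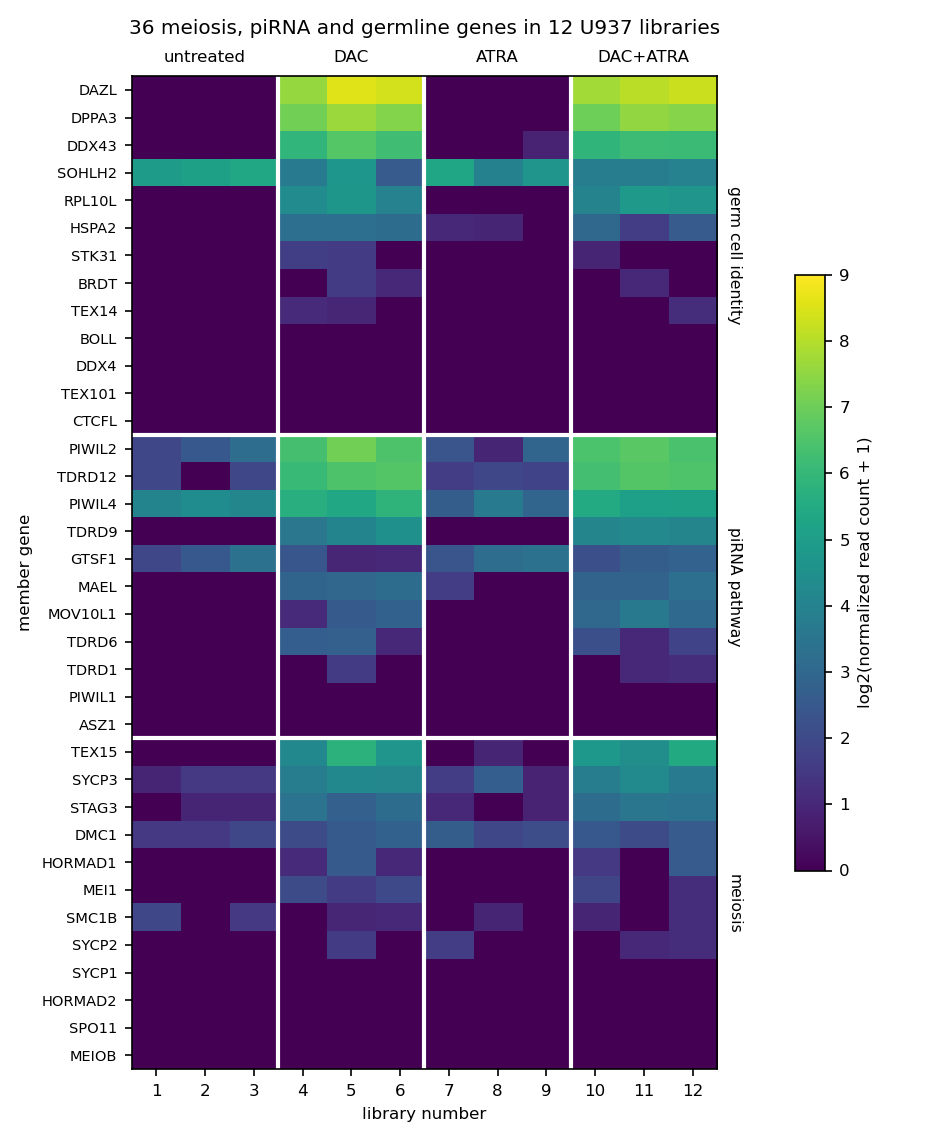
Heat map of log2(normalized read count + 1) for the 36 genes (rows, grouped by role) in the 12 libraries (columns, grouped by treatment). DAZL, DPPA3, DDX43, PIWIL2 and TDRD12 are bright in all DAC and DAC+ATRA libraries, and 10 genes are without a read in all 12.

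A gene was counted as detected in a group when at least 2 of its 3 libraries had more than 3 reads. By this rule 4 of the 36 genes (SOHLH2, PIWIL2, PIWIL4 and GTSF1) were detected in untreated cells, 17 with DAC, 5 with ATRA alone and 17 with both. Over the highest row of every symbol in the table, 30.3% were detected in untreated cells, 33.8% with DAC, 30.6% with ATRA alone and 33.8% with both. Of the 32 members not detected in untreated cells, 14 (43.8%) were detected with DAC, against 7.91% of all symbols not detected in untreated cells. Germ cell identity genes went from 1 of 13 detected in untreated cells to 6 with DAC, piRNA genes from 3 of 11 to 7, and meiosis genes from 0 of 12 to 4. DMC1, among these 4, lay near the cut and was also detected with ATRA. It had 2, 2 and 3 reads in untreated cells, 3, 5 and 6 with DAC and 5, 3 and 4 with ATRA.

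Only 11 of the 36 members had a value of at least 10 in at least 3 libraries and entered the test; 9 of these 11 reached 10 in no library without DAC, so a rise was built into their selection. For these 9 (all but PIWIL4 and SOHLH2), the counts, medians and fitted changes are given as a description and no p is printed. Values were log2-transformed after adding 1 and fitted with limma, with Benjamini-Hochberg adjustment over all protein-coding transcripts tested, and a transcript was called at an adjusted p under 0.01. TDRD12 and SYCP3, whose rows are annotated as a nonsense-mediated decay transcript and a retained intron, were tested in the same way among all transcripts. With DAC, 10 of the 11 were called higher and 1 (SOHLH2) lower. Among all protein-coding transcripts tested, 30.6% were called higher and 8.7% lower (22.2% and 11.3% of all transcripts), that is 2763 and 784. With TMM scaling the split was 2291 and 1574. The median log2 fold change was 4.37 for the 11 members and 0.22 for all tested. With that scaling, the median of all tested transcripts was 0.02.

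The largest rises among the tested members were those of the germ cell identity genes DAZL, DPPA3 and DDX43. DAZL, an RNA-binding protein that licenses germ cells for meiosis, had no read in the untreated and ATRA libraries, normalized read counts of 190.2, 378.0 and 333.7 with DAC, and 217.0, 269.5 and 311.4 with DAC+ATRA. Every library with DAC was thus far above every library without it, and the mean with DAC (301 ± 98.1, SD, n = 3) was at least 109-fold higher than 3 reads per untreated library. On the fitted scale, the log2 fold change was 8.18 with DAC (SE 0.29) and 8.04 with DAC+ATRA. DPPA3 (Stella), which protects the maternal genome from demethylation in the early embryo, was also without a read in all libraries lacking DAC. Its values were 134.0, 198.7 and 161.4 with DAC and 127.5, 185.3 and 165.6 with DAC+ATRA, at least 59.8-fold and 57.9-fold above 3 untreated reads. Of its stretches of 50 bases, the read length, 45.0% also occur in other annotated genes, among them its pseudogenes DPPA3P1 and DPPA3P2, so part of these reads could come from the copies.

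DDX43 (HAGE), a DEAD-box RNA helicase and cancer/testis antigen, had 59.5, 98.4 and 73.7 with DAC and 58.8, 71.6 and 69.2 with DAC+ATRA. No untreated library and 1 of the 3 ATRA libraries (0.83) had any read, which left no overlap, and the fitted log2 fold change was 6.26 with DAC (SE 0.35). RPL10L is the autosomal, intronless copy of the X-linked ribosomal protein gene RPL10 and stands in for it in meiotic cells, where the X chromosome is silenced. It rose from 0 to 19.5, 26.3 and 14.9 with DAC and to 15.4, 28.4 and 24.7 with DAC+ATRA. RPL10 itself was at 70.4 ± 12.4 in untreated and 68.5 ± 7.91 in DAC libraries (SD, n = 3), a log2 fold change of -0.03 (95% interval -0.43 to 0.37). Only 0.138% of the 50-base stretches of RPL10L, 1 stretch, occurred in RPL10.

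SOHLH2, a basic helix-loop-helix factor of spermatogonia and early oocytes, took the other direction. The untreated libraries had 29.4, 33.7 and 40.6, those with DAC 11.9, 25.3 and 5.0, those with ATRA 38.02, 14.56 and 24.97, and those with DAC+ATRA 12.7, 12.6 and 14.8. DAC libraries lay below all untreated ones but were widely spread, and the fall by 1.48 on the log2 scale (limma, adjusted p = 0.0059) lost its call when untreated library 1, 2 or 3, or DAC library 4 or 6, was left out (adjusted p up to 0.042, log2 fold changes of -2.01 to -0.94 over 23 alternatives). With DAC+ATRA the change of -1.30 was just outside the threshold (limma, adjusted p = 0.012) and was called in 14 of 23 alternatives. SOHLH2 shares 68.5% of its 50-base stretches with the readthrough gene CCDC169-SOHLH2 on the same strand. Such stretches are not specific to either gene.

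**Figure D2:**
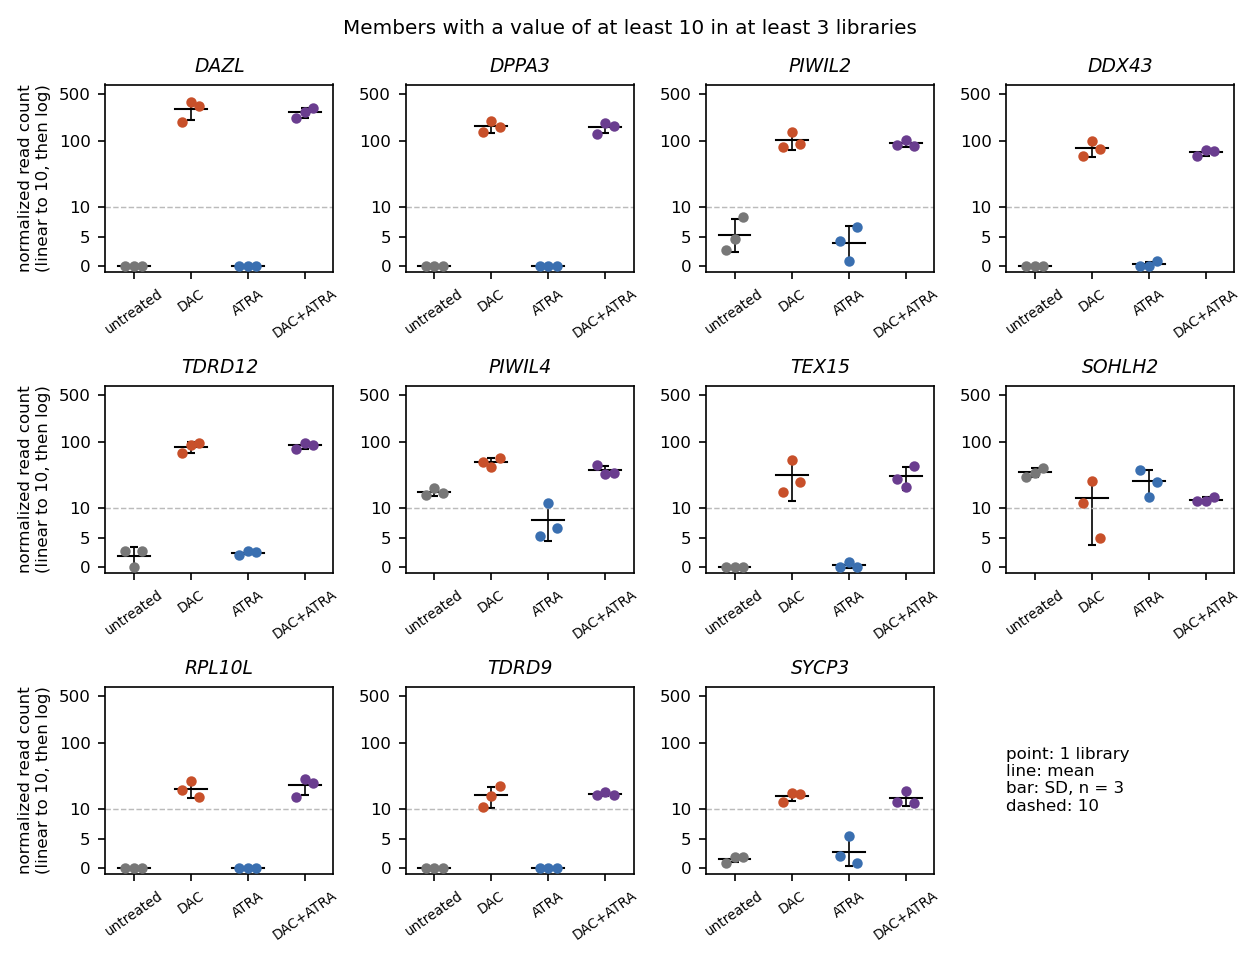
Normalized read counts of the 11 tested members in each library (points, n = 3 per group), with the group mean (line) and SD (bar); the axis is linear up to 10 and logarithmic above. In 10 of the 11 the DAC and DAC+ATRA points lie above all untreated and ATRA points, and in SOHLH2 they lie below the untreated ones.

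Among the piRNA genes, 7 of 11 were detected with DAC. PIWIL2 (HILI), a cytoplasmic PIWI protein that binds piRNAs, had reads in every library: 2.8, 4.6 and 8.3 in untreated cells, 80.0, 134.4 and 88.6 with DAC, 4.2, 0.91 and 6.7 with ATRA, and 86.8, 103.2 and 84.0 with DAC+ATRA. Relative to untreated cells, the mean was 19.4-fold higher with DAC and 17.5-fold higher with DAC+ATRA. PIWIL1, the PIWI protein of pachytene spermatocytes, was listed at 0 in all libraries although 2778 bases of its transcript are shared with no other, and PIWIL2 was counted over 1501 such bases.

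TDRD12 and TDRD9, a pair of Tudor-domain helicases, both rose. The TDRD12 row had 2.8, 0 and 2.8 in untreated cells, 67.0, 87.7 and 96.6 with DAC, 2.1, 2.7 and 2.5 with ATRA, and 77.8, 95.8 and 90.2 with DAC+ATRA, a 45.5-fold and a 47.7-fold rise of the mean. Its untreated mean rests on 3, 0 and 3 reads, so these folds are rough. TDRD9 was without a read in untreated and ATRA libraries and had 10.8, 15.6 and 21.9 with DAC and 16.3, 17.9 and 16.1 with DAC+ATRA. Both were separated from the libraries without DAC by wide gaps, with fitted log2 fold changes of 5.11 and 4.04 with DAC.

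PIWIL4 (HIWI2), the nuclear PIWI protein that guides silencing of transposable elements, had reads in every library and fell with ATRA. Untreated libraries had 15.6, 20.0 and 16.6, those with DAC 48.6, 40.9 and 56.8, those with ATRA 5.3, 11.8 and 6.7, and those with DAC+ATRA 44.3, 32.6 and 33.4. The 4 groups were ordered ATRA, untreated, then DAC+ATRA and DAC, and only DAC and DAC+ATRA overlapped. DAC raised the mean 2.80-fold (limma, adjusted p = 2.1e-04) and DAC+ATRA 2.11-fold (adjusted p = 0.0034, limma). With ATRA alone it fell by 1.11 on the log2 scale (limma, adjusted p = 0.0083), the single member called in that comparison, in which 2.67% of all protein-coding transcripts were called lower and 6.47% higher (1.87% and 5.11% of all transcripts). That call was lost in 13 of 23 alternatives, with adjusted p up to 0.048, and that for DAC+ATRA in 7 of 23, with adjusted p up to 0.21 when all rows of the symbol were summed. Summing the rows also ended the call with DAC (log2 fold change 0.73, limma, adjusted p = 0.012).

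A further PIWIL4 row, singled out after its values were seen, had lower values with DAC. It is annotated as a nonsense-mediated decay transcript that starts upstream of the row above and has 398 bases of its own. Its values were 10.1 to 13.9 in untreated cells, 0 to 3.90 with DAC, 3.17 to 13.3 with ATRA and 0.90 to 4.21 with DAC+ATRA. It reached 10 in the untreated libraries and 1 ATRA library, so low values with DAC were built into its selection, and its fitted log2 fold changes of -2.57 with DAC and -1.98 with DAC+ATRA are a description. Those of the row above were 1.43 and 1.03. Whether the ratio of the rows changed was not tested directly.

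Of the other piRNA genes, none reached the filter. The rows read for MAEL and GTSF1 are annotated without a defined coding sequence, and that for MOV10L1 as a nonsense-mediated decay transcript. MAEL, a nuage protein, had no read in untreated cells, 6.5 to 8.0 with DAC and 6.3 to 8.7 with DAC+ATRA, and the helicase MOV10L1, which binds piRNA precursors, went from 0 to 1.1 to 6.0 and to 7.2 to 11.6. TDRD6 had 1.0 to 5.8 with DAC. GTSF1, a cofactor of PIWI proteins, stood at 2.8 to 9.2 in untreated cells, 0.97 to 4.3 with DAC, 4.2 to 9.2 with ATRA and 3.6 to 6.2 with DAC+ATRA, with overlap among all groups. TDRD1 never had more than 2 reads, and PIWIL1 and ASZ1 had none.

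Of the 12 meiosis genes, TEX15 and SYCP3 were testable. TEX15, a large protein needed for meiotic recombination and for PIWI-guided DNA methylation, had no read in untreated cells and a single one in the ATRA libraries. With DAC it had 17.3, 53.6 and 24.9, and with DAC+ATRA 27.1, 21.1 and 43.3, without overlap with either other group. The mean was at least 11.6-fold and 11.1-fold higher than 3 untreated reads, and the fitted log2 fold change was 4.89 with DAC (SE 0.44). SYCP3, which forms the lateral element of the synaptonemal complex, went from 0.92, 1.8 and 1.8 to 13.0, 17.5 and 16.9 with DAC and to 12.7, 18.9 and 12.4 with DAC+ATRA, and had 2.1, 5.5 and 0.83 with ATRA. Its fitted log2 fold change of 2.75 with DAC rests on a retained-intron row of 2575 unshared bases.

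Further meiosis genes stayed low. STAG3, a meiosis-specific cohesin subunit, had at most 0.92 in untreated cells, 5.8 to 9.7 with DAC and 8.1 to 10.5 with DAC+ATRA. Of its 50-base stretches, 26.6% also lie in the STAG3L copies. The row read for STAG3 is annotated as a retained intron, and that for HORMAD1 without a defined coding sequence. HORMAD1, which binds unsynapsed chromosome axes, reached 4.9 in 1 DAC and 1 DAC+ATRA library, and DMC1, the meiotic recombinase, lay between 1.8 and 6.0 in all groups. Neither SYCP1, HORMAD2, MEIOB nor SPO11, the enzyme that cuts DNA to start recombination, had a read.

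Altogether 17 members had at most 3 reads in every library: 10 without a read (BOLL, DDX4, TEX101, CTCFL, PIWIL1, ASZ1, SYCP1, HORMAD2, SPO11 and MEIOB) and 7 with a few (TEX14, STK31, BRDT, TDRD1, SYCP2, SMC1B and MEI1). These zeros differ in weight. PIWIL1 has 2778 bases shared with no other transcript, CTCFL 399 and BOLL 264, whereas the rows of SYCP1, SPO11, HORMAD2, DDX4 and MEIOB have 0, 10, 10, 11 and 14. For the latter 5, expression was not detectable by this counting, which is not the same as absent. Over all rows of a symbol, the unshared bases came to 821 for SYCP1, 693 for DDX4 and 43 for SPO11, again without a read. With all rows of a symbol summed, 14 members had at most 3 reads in every library, since TDRD1 and SYCP2 then reached 4 and MEI1 6, and 20 were detected with DAC.

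Without the filter on low values, 6 more members were called higher with DAC (HSPA2, MAEL, STAG3, MOV10L1, TDRD6 and MEI1), which made 16 of the 26 members with a fit, beside 12.7% of all protein-coding transcripts and 7.71% in the fit over all transcripts, which held 11 of the 26. A transcript still needed a read in some library to be fitted. MOV10L1, TDRD6 and MEI1 had reads only with DAC, alone or with ATRA, so a rise was built into their selection. MEI1 had at most 3 reads in any library. The counts are therefore a description. HSPA2, a testis-enriched heat shock protein, rose by 3.24 on the log2 scale (limma, adjusted p = 1.4e-06) from no read to 8.6, 8.8 and 8.0. Of these 6, MAEL, MOV10L1, STAG3 and HSPA2 were also called with DAC+ATRA (13.9% and 9.21% in those fits). By overlap alone, all DAC libraries lay above all untreated ones for 18 of the 36 members and below them for 1, against 22.2% and 8.28% of all protein-coding transcripts with a read. With DAC+ATRA it was 16 above and 1 below (22.0% and 11.2%), and with ATRA 0 above and 1 below (6.9% and 6.71%). Between DAC+ATRA and ATRA, 15 lay above and 0 below (18.6% and 7.77%). Between DAC+ATRA and DAC, MOV10L1 lay above and HSPA2 below (7.96% and 9.27%), both at a few reads per library.

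Levels of the 11 tested members were set side by side per kilobase of unshared sequence, as means of the DAC libraries, and no other member was placed in this order. TDRD6, with 10 unshared bases, stood at 99.6 to 584.5 on this scale, from a few reads per library. DAZL stood at 1360, PIWIL4 at 157, DPPA3 at 150, PIWIL2 at 67.3, DDX43 at 51.3, TDRD12 at 28.5, RPL10L at 26.2, SOHLH2 at 24.4, TDRD9 at 17.8, SYCP3 at 6.14 and TEX15 at 3.16 normalized reads. The unshared bases differed widely, with 221 for DAZL and 311 for PIWIL4 against 1100 for DPPA3 and 10110 for TEX15. The order therefore rests in part on these lengths. The DAC libraries of DAZL did not overlap with those of the other 10 tested members. PIWIL4 overlapped with DPPA3, PIWIL2 with DDX43, TDRD12, RPL10L, SOHLH2 and TDRD9 with one another, SOHLH2 with DDX43, and SYCP3 with TEX15 on this scale. Within the DAC group, library 5 had the highest value for 8 of the 11 members and library 4 the lowest for 8.

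The next question was whether ATRA added to DAC changed these genes. With DAC+ATRA, 10 of the 11 tested members were called higher than in untreated cells, again with a rise built in for 9 (background: 32.6% of protein-coding transcripts higher and 14.2% lower, 2937 and 1278, or 2644 and 1815 with TMM scaling; 25.5% and 16.1% of all transcripts), and against ATRA alone it was the same number (background: 25.9% higher and 8.88% lower, or 19.1% and 10.2% of all transcripts). Between DAC+ATRA and DAC, 0 of 11 were called by limma in either direction (background: 6.08% higher and 5.26% lower, or 5.18% and 3.59% of all transcripts), and 0 had an unadjusted p under 0.05. The fitted differences ran from -0.40 for PIWIL4 to 0.18 for SOHLH2. Over the 11 genes, the limits of the 95% intervals ran from -1.02 at the lowest to 1.05 at the highest. For each gene, a change within its own interval could not be resolved. The interaction, which is 0 when the log2 changes of the single agents add up, was called for 0 of 11 by limma, edgeR and DESeq2 (0 with an unadjusted p under 0.05 in limma), against 0.787% higher and 1.67% lower of all protein-coding transcripts (0.527% and 0.986% of all transcripts). ATRA alone moved 1 of the 11, PIWIL4.

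**Figure D3:**
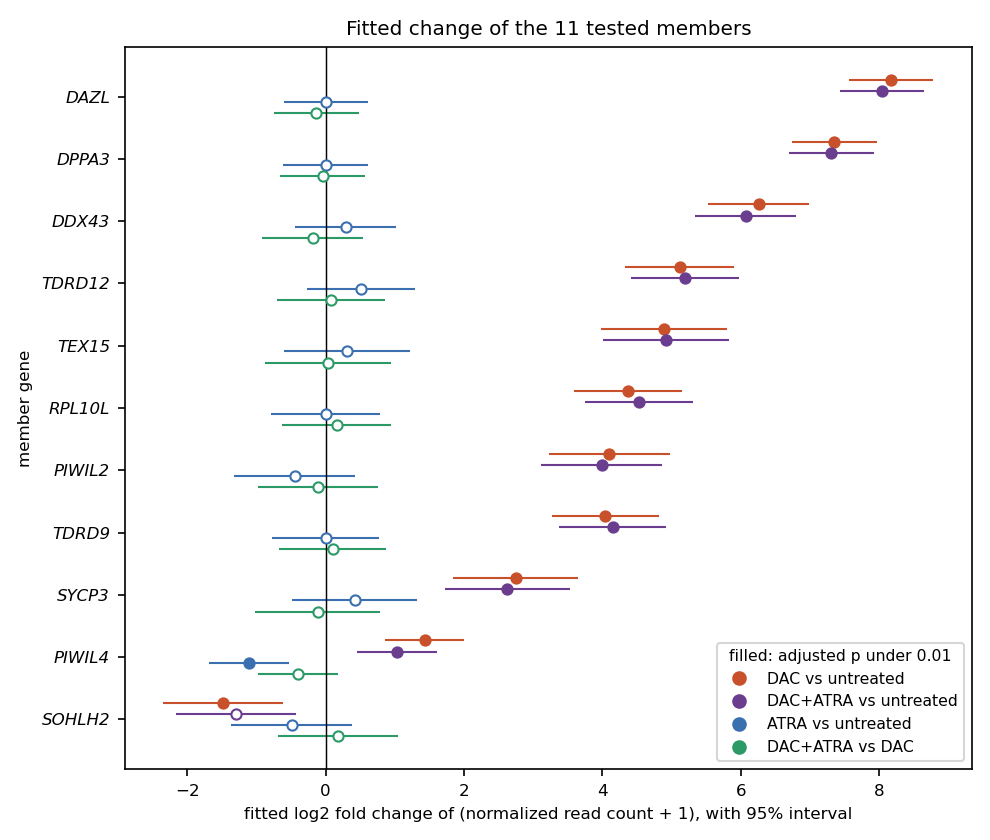
Fitted log2 fold change of log2(normalized read count + 1) with its 95% interval for the 11 tested members in 4 comparisons; filled points passed an adjusted p of 0.01. Points for DAC and DAC+ATRA against untreated cells nearly coincide, from 8.18 and 8.04 for DAZL to -1.48 and -1.30 for SOHLH2, and those for DAC+ATRA against DAC scatter around 0.

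Other genes of the same pathways were read from 3 further lists, 73 genes in all, of which 21 could be tested. With DAC 9 were called higher and 1 lower, and with DAC+ATRA 10 higher and 1 lower, while none was called by limma with ATRA alone. PLD6, a nuclease of piRNA processing, missed that threshold narrowly with ATRA at -0.70 on the log2 scale (limma, adjusted p = 0.0101), and was called lower with other scalings, in edgeR and in DESeq2. The backgrounds given above were 30.6% higher and 8.7% lower with DAC, and 32.6% and 14.2% with DAC+ATRA. SYCE1, MEIOC, STRA8, MEI4 and REC8 reached 10 in no library without DAC and so entered the test only through the treated groups. STRA8, the retinoic acid target that commits germ cells to meiosis, had the largest rise of the meiosis list with DAC+ATRA (log2 fold change 5.80): 0 to 0.92 in untreated cells, 33.5 to 54.6 with DAC, 0 to 1.06 with ATRA and 84.2 to 86.5 with DAC+ATRA. The DAC+ATRA libraries all lay above the DAC libraries, by 0.89 on the fitted log2 scale (95% interval 0.11 to 1.67), but the difference missed the threshold (limma, adjusted p = 0.12). The smallest called change in that list was SYCE1L at 0.57 with DAC+ATRA.

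Further genes of the meiosis list are named after their values were seen. SYCE1, of the central element of the synaptonemal complex, went from no read to 25.9 to 52.6 with DAC and 52.6 to 55.1 with DAC+ATRA, and MEIOC, which keeps germ cells in meiotic prophase, from no read to 16.9 to 54.6 and 19.0 to 29.7. MEIOSIN, the partner of STRA8, rose from 9.10 to 18.4 in untreated cells to 73.1 to 89.7 with DAC and 66.3 to 76.8 with DAC+ATRA. For MEIOC, MEIOSIN and SYCE1, the DAC and DAC+ATRA libraries did not differ by the test. REC8, the meiotic kleisin of cohesin, had 0.91 to 4.62, 5.85 to 6.97, 2.50 to 5.28 and 12.4 to 17.2 in untreated, DAC, ATRA and DAC+ATRA libraries, respectively. It passed the filter through the DAC+ATRA libraries alone, so its fitted log2 fold changes (2.38 with DAC+ATRA and 1.25 with DAC, a difference of 1.14) are a description.

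In the list of further germ cell genes, TAF7L, a germ cell TFIID subunit, rose most, from 12.7 to 19.3 in untreated cells to 69.7 to 93.5 with DAC and 75.4 to 90.5 with DAC+ATRA, and DND1 least among those called (log2 fold change 1.01 with DAC+ATRA). In the piRNA list, DDX25, an RNA helicase of spermatids, was the only gene called with DAC+ATRA and fell, from 46.2 to 62.8 to 23.2 to 26.2. Of 28 spermatid genes 5 were testable and 23 were not. Among the 5, none was called higher in a comparison with untreated cells (background: 30.6% with DAC, 32.6% with DAC+ATRA and 6.47% with ATRA). Without the filter 2 of 18 were called higher with DAC+ATRA, beside 13.9% of all protein-coding transcripts and 9.21% in the fit over all transcripts. TSSK3, a testis-specific kinase, had 10.9 to 13.9 in untreated cells, 1.95 to 6.97 with DAC, 3.17 to 4.55 with ATRA and 1.05 to 6.18 with both. TSSK3 reached 10 in untreated libraries alone and passed the filter through them, so lower values in the other groups were built into its selection and its log2 fold changes (-1.71 with DAC and -1.67 with DAC+ATRA) are given as a description. Both were under the limma threshold but not with a pseudocount of 0.1, in DESeq2, or without DAC library 4 or 5 (-1.51 and -1.46) and DAC+ATRA library 11 (-1.13), and without any 1 untreated library TSSK3 missed the filter. TSSK6 was called lower with DAC+ATRA at -1.36, but not without untreated library 1 or 2 or DAC+ATRA library 10 or 12 (log2 fold changes of -1.30, -1.12, -1.44 and -1.12).

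Somatic relatives of the members were followed alongside. Of 17, 11 were testable; 2 were called higher and 2 lower with DAC, and 3 higher and 2 lower with DAC+ATRA (background: 30.6% and 8.7%, then 32.6% and 14.2%). SMC1A, the mitotic counterpart of SMC1B, fell from 27.6 to 43.7 in untreated cells to 10.8 to 19.9 with DAC, while SMC1B stayed at or below 3 reads. Among the Argonaute relatives of the PIWI genes, AGO1 rose with ATRA from 1598 to 1744 to between 3509 and 3905 (log2 fold change 1.14, limma, adjusted p = 3.5e-09), with DAC+ATRA by 1.05 and with DAC by 0.29. AGO4 was called at 0.35 with DAC+ATRA. The small rise of AGO1 with DAC lost its call when any 1 untreated or DAC library was left out, and with TMM scaling (0.09), edgeR or DESeq2.

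Promoter sequence was compared over RefSeq windows of 300 bases (250 before and 50 after the start), of which the table held 39 for 30 of the members. The windows of members had a median of 25 CpGs, those of the genes tested in the fit also 25, and the full set of 35116 windows 14. Windows of members called higher with DAC had a median of 25.5 (n = 8) and those of members without a read 19 (n = 13). In the first class DPPA3 had the fewest, 6. The DDX4 window, with 1, belongs to a start 28824 bases from that of the row read for DDX4. The letters CACGTG (an E-box, the MGA-MAX motif) occurred in 28.2% of the members' windows, 9.38% of those of tested genes and 7.26% of all windows. GCGGGAA on either strand, the core of the E2F6 motif, occurred in 25.6%, 9.77% and 6.55%. By gene, 8 of the 30 members had the E-box, 10 the E2F6-type letters and STAG3 both.

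The E-box letters were in 2 of the 8 windows of members called higher with DAC and in 0 of the 13 windows of members without a read, and GCGGGAA in 2 and 4 of them. Neither difference was tested. CACGTG lay 25 bases before the TDRD12 start, as seen in the sequence above, and 154 bases before a further DAZL start, but was also found for BRDT, STK31 and TDRD1, which had at most 2 reads. GCGGGAA was found 54 bases before the RPL10L start and at the start of TDRD9, and likewise before SPO11 and ASZ1, which had none. The TDRD12 window belongs to the start of its protein-coding transcript and lies 95796 bases upstream of the row with the highest mean. A match of letters is a description of the window and not evidence of binding, and DNA methylation was not analysed here.

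**Figure D4:**
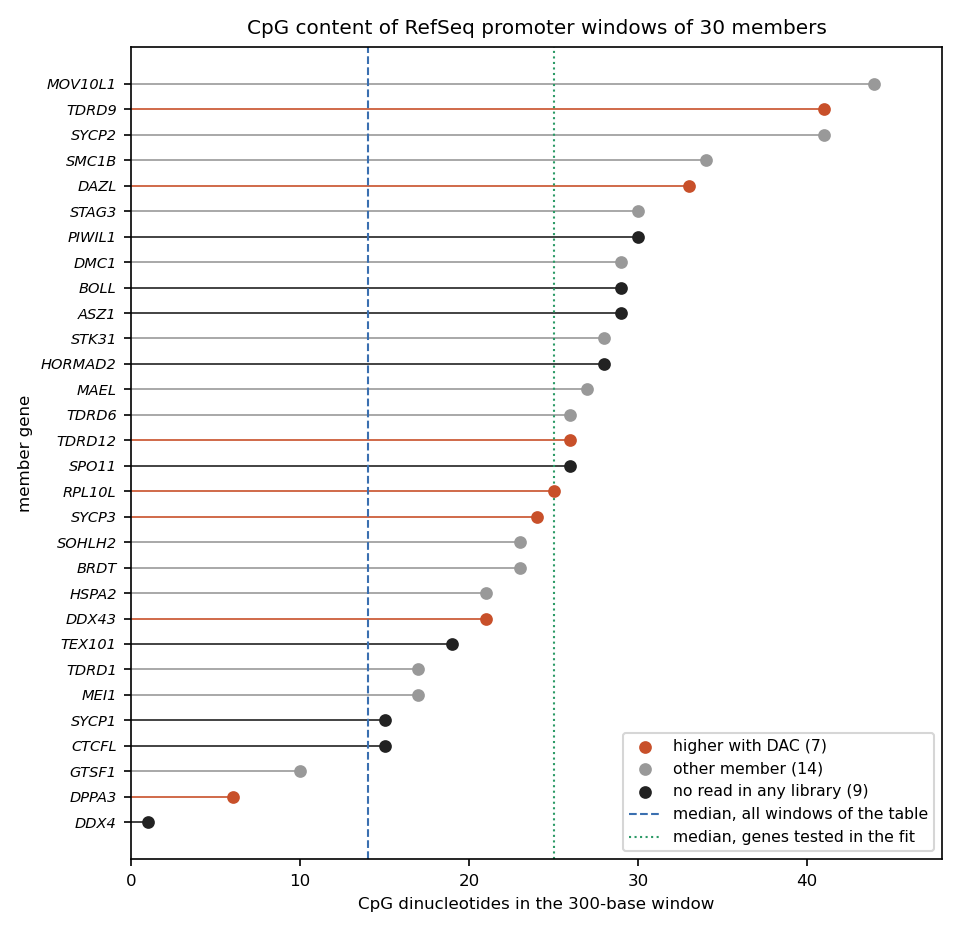
CpG dinucleotides in the 300-base RefSeq window nearest to the row's start for 30 members, coloured by class (higher with DAC, no read in any library, other). Counts ran from DPPA3 (6) to TDRD9 (41) among genes that rose and from DDX4 (1) to PIWIL1 (30) among genes without a read. The DDX4 window belongs to a start 28824 bases from its row. Next lowest were DDX43 (21) among genes that rose, and CTCFL and SYCP1 (15 each) among genes without a read.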

How the data were processed

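Strand-specific, ribosomal RNA-depleted libraries of U937 cells (3 each untreated, DAC, ATRA and DAC+ATRA) were sequenced with paired reads of 50 bases. The deposited table holds 1 signal value per transcript and library, read counts that the authors divided by size factors; the submitters' processing notes name FastQC, STAR, HTSeq, DESeq2 and hg38, without versions. Every column was divided by its smallest step, and 100% of values came out as whole reads within 0.1 read (8042435 to 10683593 per library). Each gene is its row with the highest mean. Values were log2-transformed with a pseudocount of 1 and fitted with limma 3.58.1 (R 4.3.3, trend and robust options) over all 12 libraries, for 9016 protein-coding transcripts with at least 10 in at least 3 libraries, with Benjamini-Hochberg adjustment and a threshold of 0.01. Rows of other types were fitted among 19373 transcripts. On the recovered reads, edgeR 4.0.16 (TMM) called 2294 transcripts higher and 1604 lower with DAC, 599 and 389 with ATRA alone, and 2635 and 1834 with DAC+ATRA; DESeq2 1.42.0 was a further alternative. Other alternatives changed the threshold, pseudocount, filter, scaling, rows or libraries, and TMM scaling in limma was chosen after seeing the data. The fits were also run on simulated data, and the outcome is not reported here. Replicate pairs differed more than counting noise (chi-square per degree of freedom 2.05 to 8.19, 12 pairs). Exon bases shared with no other transcript, and shared stretches of 50 bases, came from GENCODE 44; promoter windows are from RefSeq (GRCh38.p14). Whether counting used the strand is not given in the sources used here, and DDX43, SYCP3, PIWIL4, TDRD9 and TDRD12 overlap genes on the other strand. Of transcripts whose only unshared bases lie opposite another transcript, 27.2% had 10 reads, against 33.6% of those with bases free on both strands and 2.02% of those covered on their own strand. All 11 tested members are named, and of each other list the largest and smallest called with DAC+ATRA; further names are said to be chosen after values were seen. The members and lists were chosen with earlier results of these data known. Some somatic paralogs are counted but not reported here by name.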

Additional observations from a re-analysis of the deposited data

Results flagged for a closer look

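A second row of TDRD12, its protein-coding transcript, was not the row read for TDRD12 above, except where the rows of a symbol were summed, and held reads above the untreated libraries. Its mean normalized read count was 66.9 with DAC (SD 20.7, n = 3) and 56.3 with DAC+ATRA, against 0 to 0.92 in the untreated and 0 to 1.06 in the ATRA libraries. It reached 10 in libraries with DAC alone or with both and in no other, so no test of the row is given. The row starts 14 bases from the RefSeq start shown for TDRD12.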

How the results depend on the processing

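No paired analysis was possible because the columns carry running numbers and not replicate numbers. Under the alternatives for single genes, 3695 of 3857 values stayed on their side of the threshold. Of the values called in the main fit or the alternative, 0 reversed their sign. The sign of values called in neither was not compared, and some of these changed direction. Without the low-value filter 16 members were higher with DAC; no member was tested when every library had to reach 10. The PIWIL4 call with ATRA was gone (0 members lower) without the filter, with only the groups compared, in edgeR and in DESeq2, and 1 member, SOHLH2, was lower with DAC+ATRA at an adjusted p under 0.05, without the filter, among all transcripts, with library size, protein-coding or TMM scaling, with only the groups compared, with rows summed, in edgeR and in DESeq2. Leaving out 1 library gave 0 to 1 members lower with each of DAC, ATRA and DAC+ATRA. The ATRA call of PIWIL4 was lost without untreated library 1, 2 or 3, DAC library 4, ATRA library 7 or 9, or DAC+ATRA library 10, 11 or 12, and its DAC+ATRA call without untreated library 1 or 3 or DAC+ATRA library 10. With at least 1 read as detected, 9 members were detected in untreated and 9 in ATRA cells; with a value of at least 10, the counts were 2 untreated, 11 with DAC, 1 with ATRA alone and 11 with both, and without 1 library 2 to 4 untreated and 3 to 5 with ATRA.

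For other germline genes, a value of at least 10 in every library left 4 higher with DAC and 4 with DAC+ATRA. Lower with DAC were 2 at an adjusted p under 0.05 and 4 with rows summed. Lower with ATRA was 1 at that threshold, without the filter, with 10 in every library, among all transcripts, under all 3 other scalings, with rows summed, in edgeR and in DESeq2. Lower with DAC+ATRA were 4 at that threshold and with rows summed, and 2 under the other scalings, with only the groups compared, in edgeR and in DESeq2. Without 1 library, 0 to 1 were higher and 0 to 1 lower with ATRA and 1 to 2 lower with DAC+ATRA. Of spermatid genes, 0 were lower with DAC at a pseudocount of 0.1, with 10 in every library and in DESeq2 (0 to 1 without 1 library), 1 lower with ATRA at an adjusted p under 0.05, 2 higher with DAC+ATRA without the filter, and 1, 0 and 1 lower with DAC+ATRA at that pseudocount, with 10 in every library and in DESeq2 (0 to 3 without 1 library). Of the paralogs, 1 was higher with DAC without the filter, under the other scalings, in edgeR and in DESeq2, and 4 were lower with DAC+ATRA under those scalings, in edgeR and in DESeq2, or 1 with rows summed. Without 1 library, 1 to 2 paralogs were higher and 1 to 2 lower with DAC, and 1 to 4 higher and 1 to 3 lower with DAC+ATRA. The cause of these differences was not tested. At this depth, values under 2.50 rest on fewer than 3 reads.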
